A study of Mus musculus with 2 samples.

Results

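Igf1 encodes insulin-like growth factor 1, and it was followed in single fate-mapped cells of uninjured and injured mouse spinal cord. It was chosen by name, as 1 of the 27998 genes counted, with its higher level after injury already known from these libraries. At least 1 Igf1 molecule was counted in 190 of 577 injured cells and in 3 of 695 uninjured cells. The mice of both groups were C57BL/6J and carried Cx3cr1-CreER::Rosa26-tdTomato. At postnatal week 4 they received 4-hydroxytamoxifen, 1 mg in each of 2 injections. The drug activates the Cre recombinase made by cells that use the Cx3cr1 promoter, chiefly microglia and other resident macrophages, and marks them for good with tdTomato. Cords were dissociated with collagenase 4 weeks after the drug, and tdTomato-positive cells were sorted. The control library came from age-matched uninjured animals. The injured library came from animals injured with lysolecithin, which demyelinates axons, with the cord taken on day 5. The labels give neither the number nor the sex of the animals pooled. Each group is 1 library without a replicate, so no test was run, and every interval given is a 95% interval that covers counting error only.

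Insulin-like growth factor 1 is a secreted peptide. It binds the receptor tyrosine kinase encoded by Igf1r, which signals through insulin receptor substrates, phosphoinositide 3-kinase and Akt. Binding proteins carry the peptide outside the cell and limit its access to the receptor, and proteases such as pappalysin release it from them. In the central nervous system it is known as a survival and maturation signal for neurons and for cells of the oligodendrocyte lineage, which make myelin. Microglia make it in early postnatal white matter and near damaged or demyelinated tissue.

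In the GENCODE M21 annotation of GRCm38, Igf1 (ENSMUSG00000020053) is a protein-coding gene on the plus strand of chromosome 10, from 87858265 to 87937042. Its 8 annotated transcripts end at 8 different positions, from 87915349 to 87937042. The libraries count the 3′ ends of polyadenylated RNA, so the value of Igf1 sums over these transcripts and does not tell them apart. Each molecule carried a unique molecular identifier (UMI). The uninjured library held 2093084 UMIs with a median of 3003 per cell, and the injured library held 3095511 with a median of 4396. No cell barcode was shared between the libraries. Because injured cells were deeper, shares of cells were compared after each cell had been thinned at random to an equal number of UMIs.

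Igf1 was rare in uninjured cord and common after injury. The uninjured library held 14 Igf1 UMIs, which is 6.69 UMIs per 1000000 of the library (CPM, interval 3.66 to 11.2). The injured library held 648, which is 209 CPM (193.5 to 226). The ratio was 31.3-fold (18.5 to 57.6), or 4.97 on the log2 scale. It stood 12th among the 9056 genes with at least 20 UMIs over both libraries, of which 7.23% were at least 2-fold higher after injury and 11.5% at least 2-fold lower. Since Igf1 was chosen for this difference, the ratio describes the libraries and supports nothing else. At 1500 UMIs per cell, an Igf1 UMI was seen in 83 of 567 injured cells, or 14.6% (11.8 to 17.8), and in 3 of 604 uninjured cells, or 0.497% (0.103 to 1.44). At 2500 UMIs per cell the injured share was 22.8% (19.2 to 26.6), so the share depends on the depth at which it is read. The libraries also differed in the sex of their cells. Xist UMIs alone, a sign of female cells, were seen in 6 uninjured and 213 injured cells, and Y-linked UMIs alone in 235 and 147. Among cells with Y-linked UMIs alone, Igf1 was at 6.21 CPM (2.02 to 14.5) without injury and at 235 CPM (203 to 271) after it. In sums over a library, more cells with Igf1 and more Igf1 per cell cannot be told apart. Counted per cell, more injured cells carried Igf1, while the median over cells with at least 1 UMI was 2 in the injured library and 5 in the 3 uninjured cells.

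Per injured cell the Igf1 count spread widely. None was seen in 387 cells, 1 UMI in 66, 2 UMIs in 40, 3 to 5 in 46, 6 to 9 in 26, and 10 or more in 12, with a highest value of 19. The 10 cells with most Igf1 held 131 UMIs, or 20.2% of the library's total. At 2500 UMIs per cell the variance of the count was 0.703 against a mean of 0.375, a ratio of 1.87, where counting error alone around 1 common level would give a ratio of about 1. The 3 uninjured cells held 1, 5 and 8 Igf1 UMIs.

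**Figure D1:**
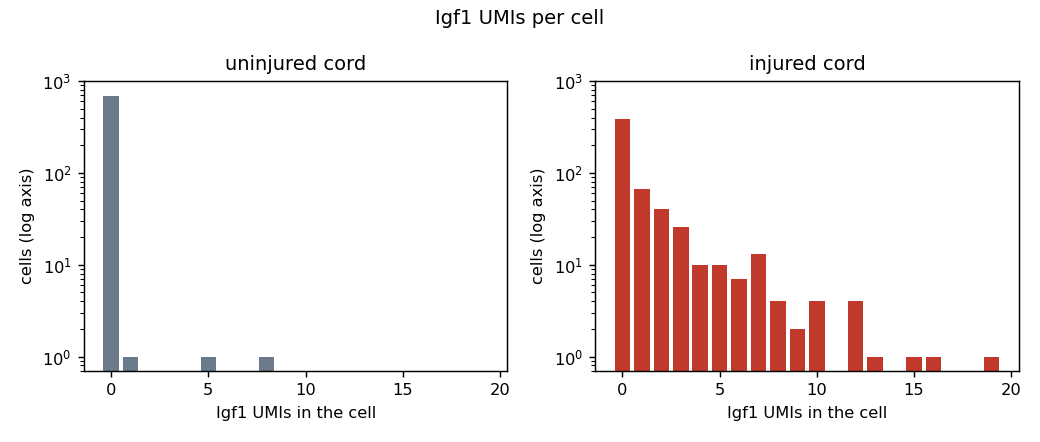
Number of cells (log axis) by the Igf1 UMIs counted in the cell at full depth, for the uninjured library on the left and the injured library on the right. In the uninjured library 3 cells stand away from 0, and in the injured library 190 cells do, up to 19 UMIs.

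Igf1 was concentrated in a few of the 11 clusters of cells, which were built over both libraries without using Igf1 itself. Cluster 11, led by the lipase gene Lpl, the receptor gene Lilr4b and the fibronectin gene Fn1, held 146 injured and 2 uninjured cells. Its injured cells carried 473 Igf1 UMIs, which is 73.0% of the injured library's Igf1 and 392.4 CPM (358 to 429), whereas they held 38.9% of all its UMIs. The 10 leading genes of cluster 3 included the border macrophage genes Mgl2, Mrc1 and F13a1. In its injured cells, however, the 11 microglia markers summed to 11436 CPM and the 13 border macrophage markers to 1142 CPM. Cluster 3 therefore stays unnamed. Its 47 injured cells carried 92 Igf1 UMIs, or 353 CPM (284 to 433). Both clusters together held 87.2% of the injured Igf1 UMIs and 74.2% of the injured cells with one. At 1500 UMIs per cell, Igf1 was seen in 49 of 146 injured cells of cluster 11 (33.6%, 26.0 to 41.8) and in 14 of 46 of cluster 3 (30.4%, 17.7 to 45.8). For the level and for the share, the intervals of both clusters overlapped.

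The other clusters with injured cells had less Igf1. Cluster 10, led by the interferon-induced genes Rsad2 and Iigp1, had 119 CPM (79.6 to 171), and cluster 6 had 98.7 CPM (66.1 to 142). Cluster 6 was led by genes of glia and oligodendrocyte precursors such as Fabp7 and Pllp, and stays unnamed. The intervals of clusters 10 and 6 overlapped each other, and both lay below those of clusters 11 and 3. The share of cells with Igf1 at 1500 UMIs was 22.7% (11.5 to 37.8) in cluster 6 and 11.4% (3.79 to 24.6) in cluster 10. At that depth the interval of cluster 6 overlapped those of clusters 11 and 3, and that of cluster 10 overlapped that of cluster 3. At 2500 UMIs these overlaps were gone. The shares there were 19.5% (8.82 to 34.9) in cluster 6 and 10.3% (2.87 to 24.2) in cluster 10. In clusters 11 and 3 they were 49.3% (41.0 to 57.7) and 56.8% (39.5 to 72.9). Clusters 9, 8 and 7 had 37.1 CPM (14.9 to 76.4), 29.8 CPM (6.15 to 87.1) and 24.8 CPM (13.6 to 41.7), with overlapping intervals. Cluster 7 was as large as cluster 11, with 149 injured cells, and only 12 of them carried an Igf1 UMI. The 70 injured cells in clusters 1, 2, 4 and 5, where uninjured cells outnumbered injured ones, held 1 Igf1 UMI between them, or 4.197 CPM (0.106 to 23.4). At 1500 UMIs per cell it was seen in 0 of 68 of them, which allows a share of up to 5.28%. In 9 injured barcodes with endothelial or oligodendrocyte precursor markers, cells that should lack a microglial transcript, there were 0 Igf1 UMIs at a median depth of 3254 UMIs, which allows a share of up to 33.6%.

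**Figure D2:**
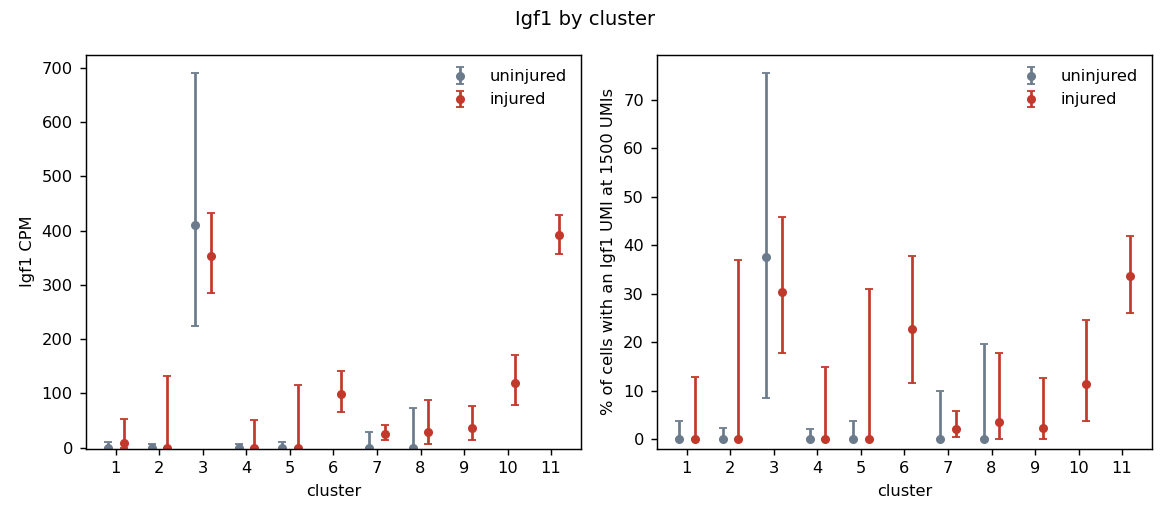
Igf1 level in CPM (left) and percent of cells with an Igf1 UMI at 1500 UMIs per cell (right) for each cluster with at least 5 cells of the library, with exact 95% counting intervals. In the injured library clusters 11 and 3 stand above the rest in CPM. In the share at 1500 UMIs the interval of cluster 6, at 22.7%, overlaps both. Cluster 3 is the only one with Igf1 in the uninjured library.

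All 14 uninjured Igf1 UMIs were in cluster 3, in 3 of its 9 uninjured cells, at 411 CPM (225 to 690). That interval overlapped the one of the injured cells of the same cluster, at 353 CPM. The 3 cells carried 1, 17 and 6 UMIs of Ms4a7, a macrophage membrane protein, and 7, 1 and 3 of the chemokine gene Pf4. P2ry12, the ADP receptor typical of microglia, gave 1, 0 and 0. Without cluster 3 the uninjured library had no Igf1 UMI, and the log2 ratio was at least 7.07 against a floor of 3 counts. Without cluster 11 the ratio was 3.78. The injured cells of cluster 3 were not alike with the uninjured ones. The 13 border macrophage markers summed to 1142 CPM in them against 4670 CPM in the uninjured cells, and the 11 microglia markers to 11436 CPM against 2056 CPM. Ccr2, the chemokine receptor of blood monocytes, had 13 UMIs (49.8 CPM) in the injured cells of cluster 3 and 6 (176 CPM) in its uninjured cells. In the injured cells of cluster 11 Ccr2 had 0 UMIs. The monocyte gene Ly6c2 had 0 in each of these groups.

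Injured cells with Igf1 had Igf1 levels with overlapping intervals in both main clusters, while several other genes differed. The cells were picked by their own Igf1 count, so the overlap of these levels is no separate result. Counting only cells with an Igf1 UMI at full depth, the level was 488 CPM (445 to 534) in 112 cells of cluster 11 and 494 CPM (398 to 606) in 29 cells of cluster 3. The microglial membrane gene Tmem119 was at 549 CPM (503 to 597) in the former and 424 CPM (336 to 529) in the latter, and P2ry12 at 324 CPM (289 to 362) and 263 CPM (195 to 348). Ms4a7 was at 52.6 CPM (39.2 to 69.2) in cluster 11 and 456 CPM (364 to 564) in cluster 3. Pf4 was likewise lower in cluster 11, at 44.4 CPM (32.1 to 59.7) against 215 CPM (153 to 292). Mrc1, the mannose receptor of border macrophages, had 0 UMIs in the former and 5 in the latter. Mrc1 is a leading gene of cluster 3, and Ms4a7 and Pf4 are on the list of border macrophage markers. The clusters were themselves built from gene counts, so these differences do not tell independently what the cells of cluster 3 are.

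Cells with Igf1 were also deeper cells. Injured cells were ordered by their total UMIs and cut into 4 bins of 145, 144, 144 and 144 cells. From the shallowest to the deepest bin, the Igf1 level was 41.3, 49.1, 126 and 364 CPM. After thinning to 1500 UMIs the share with Igf1 was 4.44%, 5.56%, 10.4% and 37.5%. The share of cells in cluster 11 moved along, at 2.76%, 8.33%, 23.6% and 66.7%, and the median depth of cluster 11 was 8180 UMIs against 4396 in the whole injured library. Cell size, RNA content and barcodes with more than 1 cell cannot be told apart from these counts. Within the injured library Igf1 was present in cells of both sexes. It was at 235 CPM with Y-linked UMIs alone and at 223 CPM (198 to 251) with Xist UMIs alone, with shares of 13.2% (8.13 to 19.8) and 16.7% (11.9 to 22.4) at 1500 UMIs.

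Injured cells with and without an Igf1 UMI were then compared at 2500 UMIs per cell. Cells below that depth were left out, and both the Igf1 status and the other genes were read from the same thinned counts. There were 117 cells with and 397 without. A cell without a UMI may still make Igf1, since 185 of the same 514 cells had one at full depth. The cells with Igf1 had a median full depth of 7504 UMIs against 4313, and similar mitochondrial shares of 2.55% and 2.51%. Of the cells with Igf1, 72 were in cluster 11 and 21 in cluster 3. Of those without, 74 were in cluster 11 and 16 in cluster 3. Among 4179 genes with at least 30 UMIs, 79 (1.89%) were at least 2-fold higher in cells with Igf1 and 343 (8.21%) at least 2-fold lower. The median log2 ratio was −0.13. With trimmed-mean (TMM) scaling, which moved all ratios up by 0.12, the counts were 122 higher and 256 lower.

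The genes furthest above 0 in cells with Igf1, ranked by the lower bound of their interval, included genes of secreted and membrane glycoproteins, galectins and lipid handling. Spp1, which encodes the secreted glycoprotein osteopontin, was at 24414 CPM with and 4559 CPM without Igf1, a log2 ratio of 2.42 (2.37 to 2.47). Lgals3 (galectin-3, a secreted lectin) was at 701 against 118 CPM, a log2 ratio of 2.57 (2.24 to 2.91). Gpnmb, a lysosomal and surface glycoprotein, was at 373 against 43.3 CPM, a log2 ratio of 3.10 (2.58 to 3.65). Gpnmb rested on 109 and 43 UMIs. In another random thinning the log2 ratio was 1.89 for Spp1 and 1.95 for Gpnmb. Both values lie below the intervals given, so these intervals understate the uncertainty. Lgals1 (galectin-1) had a log2 ratio of 2.11, the scavenger receptor gene Msr1 2.08, and Adam8, a membrane metalloprotease, 2.70 on 21 and 11 UMIs. Plin2, which coats lipid droplets, had 1.68, and Fabp5, a fatty acid-binding protein, 1.71. Fn1 had 1.67 and Vim, the intermediate filament vimentin, 1.70. Anxa5, which binds phosphatidylserine, had 1.49, and Dab2, an endocytic adaptor, 1.74. Crip1 (2.01), Wfdc17 (1.52) and Ctla2a (1.74) completed the 15. Without barcodes above 3 times the median UMI count, 15 of the 15 stayed past 2-fold. In the other thinning Crip1 was at 0.95, Wfdc17 at 0.92, Fn1 at 1.16 and Vim at 1.29.

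The 15 genes furthest below 0 included several that mark resting microglia. P2ry12 was at 362 CPM with and 1237 CPM without Igf1, a log2 ratio of −1.77 (−2.07 to −1.48). Siglech, a lectin of microglia that binds sialic acid, had −2.10 (−2.74 to −1.51), and −1.44 in another thinning. Cst3, the protease inhibitor cystatin C, was at 9597 against 25567 CPM, a log2 ratio of −1.41. Adgrg1, an adhesion receptor of microglia, had −2.22. The inflammatory genes Ccl12, a chemokine, and Il1a, a cytokine, had −1.30 and −1.15. Lag3, an inhibitory receptor, had −1.37, the lectin receptor gene Clec4a2 −2.35, and Tuba1a, a tubulin, −1.53. H2-Oa (−2.61), Tsc22d1 (−1.84) and Samhd1 (−2.10) were also among them, and in another thinning H2-Oa was at −1.29 and Samhd1 at −0.45. Nfyc and Il16 had 0 UMIs in the cells with Igf1, and their log2 ratios were at most −1.78 and −1.65 against a floor of 3 counts. Ptn, a secreted growth factor, had −3.66, but 41 of its 43 UMIs in cells without Igf1 came from 6 barcodes with endothelial or oligodendrocyte precursor markers.

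**Figure D3:**
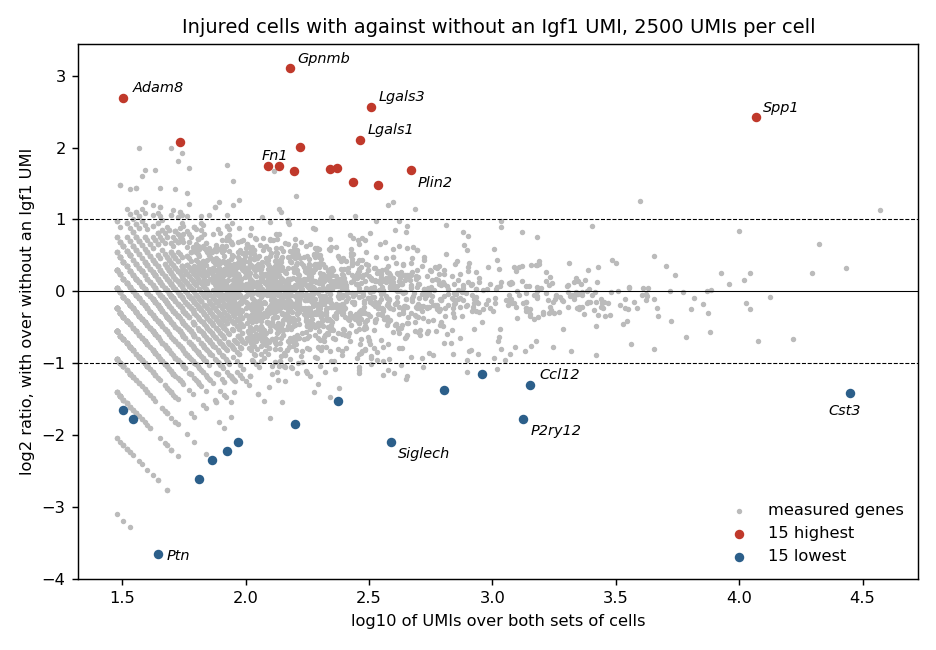
Log2 ratio of CPM in injured cells with over without an Igf1 UMI (vertical) against the log10 of the gene's UMIs over both sets (horizontal), each cell thinned to 2500 UMIs. Grey points are the measured genes, colours mark the 15 genes furthest above and below 0 by the bound of their interval, and dashed lines mark 2-fold. Spp1 stands at 2.42 and Gpnmb at 3.10, and P2ry12 at −1.77 and Siglech at −2.10.

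The gene lists ranged from a median log2 ratio of 1.89 to −0.81, beside −0.13 over all measured genes. Of all measured genes, 1.89% were at least 2-fold higher with Igf1 and 8.21% at least 2-fold lower. Secreted and matrix genes were highest, a median of 1.89 (1.45 in another thinning), and 6 of 8 measured members past 2-fold upward and 0 downward. Among them Tgfbi, a matrix protein, was at 1.20, while Sparc, another, was at −0.88. Lipid-handling genes had a median of 0.93, with 7 of 17 past 2-fold upward and 0 downward. They included Apoe, the lipid carrier of microglia, at 50168 against 22804 CPM (log2 ratio 1.14), Apoc1 at 1.33, Lpl at 1.14 and the cholesterol ester hydrolase Nceh1 at 1.70. Damage-associated microglia genes had a median of 0.57, with 7 of 27 past 2-fold upward and 0 downward. Several of these are in more than 1 list, among them Spp1, Gpnmb, Lgals3, Fabp5, Lpl and Apoe. Trem2, the lipid-sensing receptor of that programme, was at 0.16 and its signalling partner Tyrobp at 0.22. Glycolysis and hypoxia genes had a median of 0.76, with Tpi1, a glycolytic isomerase, at 1.20 (0.98 in another thinning) and Bnip3, a mitophagy receptor, at 1.27 among 17.

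Homeostatic microglia genes were lowest, with 7 of 27 at least 2-fold lower, 0 higher and a median of −0.81. Slc2a5, a fructose transporter, was at −1.82 and Tmem119 at −0.92, while Sall1, a microglial transcription factor, was at 0.32. Of 23 early-response genes, known to rise during dissociation, 4 were at least 2-fold lower, with a median of −0.54. The heat shock gene Hspa1a was at −1.08, Egr1, an immediate early transcription factor, at −1.06 and Fos, another, at −0.15. Handling of the cells was not tested as a part of these differences. Interferon-response genes had 2 of 17 at least 2-fold lower, near the 8.21% of all measured genes, and a median of −0.47. Both, Xaf1 at −1.24 and Ifit1 at −1.03, were no longer past 2-fold in another thinning, where the median was −0.07. At 1500 UMIs per cell the median was 0.16, so the list has no stable direction.

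Lysosomal genes had a median of 0.27, and none of 29 was past 2-fold, with the cathepsin gene Ctsb at 0.84 and Ctss, another, at −0.70. Beside 1.89% higher and 8.21% lower over all measured genes, cytokines and chemokines had 2 of 18 higher and 2 lower. The higher ones were Cxcl1 at 1.43 and Cxcl14 at 1.44, the lower ones Ccl12 and Il1a, and the median was 0.01. Both chemokines at the top rested on few UMIs, 23 and 16 in the cells with Igf1, and Cxcl1 was at 0.67 in another thinning. Measured S phase (4) and G2 and M phase (6) genes had medians of −0.12 and 0.08, none past 2-fold. Among them the tubulin gene Tubb5 was at 0.43 (0.15 to 0.71). MHC class II genes had a median of −0.37 over 4. Border macrophage markers summed to 342 CPM in the cells with Igf1 and 135 CPM in those without, and 5 and 6 of the 13 were at 0. Of the 3 measured, Ms4a7 was at 1.54 and Pf4 at 1.99, while Stab1 was at 0.42 (−0.48 to 1.26). Microglia markers summed to 14103 and 17991 CPM. Within cluster 11 Ms4a7 was at 1.52 (−0.03 to 3.35) on 14 and 5 UMIs, and within cluster 3 at −0.69 (−1.50 to 0.10) on 26 and 32. The part of these markers in the other differences was not tested.

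**Figure D4:**
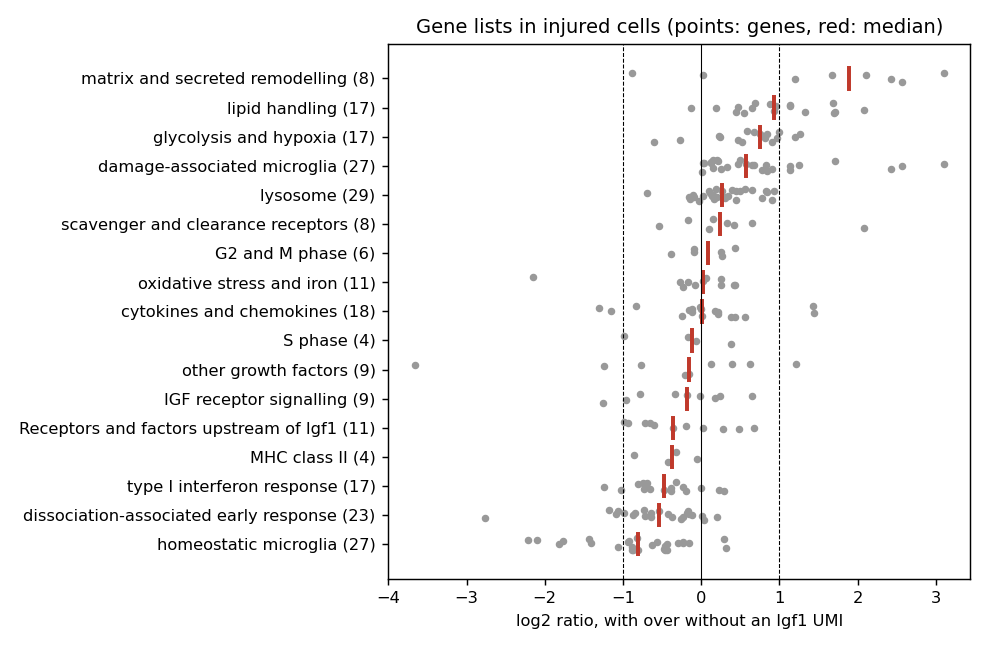
Log2 ratio in injured cells with over without an Igf1 UMI for the measured genes of each list (grey points), with the list's median as a red bar and the number of measured genes in brackets. Matrix and secreted remodelling stands highest at 1.89 and homeostatic microglia lowest at −0.81.

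For several genes the differences were graded with the Igf1 count. With 0, 1 and 2 or more Igf1 UMIs at 2500 UMIs per cell (397, 69 and 48 cells), Spp1 was at 4559, 19119 and 32025 CPM. Lgals3 went from 118 to 499 and 992 CPM, Plin2 from 242 to 614 and 1008 CPM, and Gpnmb from 43.3 to 296 and 483 CPM. P2ry12 went the other way, from 1237 to 475 and 200 CPM, and Cst3 from 25567 to 11559 and 6775 CPM. Apoe did not follow this order, with 22804, 52394 and 46967 CPM, and neither did Siglech, with 366, 63.8 and 117 CPM. The share of cells in cluster 11 moved along, at 18.6%, 50.7% and 77.1%, and so did the median full depth, at 4313, 7378 and 8182 UMIs.

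Read the other way, Igf1 was seen in 116 of 443 cells with a Spp1 UMI (26.2%, 22.1 to 30.5) and in 1 of 71 without (1.41%, 0.0357 to 7.599). It was seen in 28 of 51 cells with a Gpnmb UMI (54.9%, 40.3 to 68.9) and in 19.2% (15.7 to 23.1) of those without. For Lgals3 the shares were 47.0% and 12.7%, for Plin2 39.9% and 11.6%, and for Lpl 36.8% and 13.5%. For P2ry12 they were 14.8% (11.3 to 18.8) with and 42.6% (34.5 to 51.0) without, and for Siglech 7.76% and 35.1%. Presence of the interferon-induced gene Ifit3 went with 18.2% (9.08 to 30.9) against 23.3%. Cells with at least 2 UMIs of G2 and M phase genes, leaving out the list members Hmgb2 and Tubb5, had Igf1 in 20% (10.03 to 33.7) against 23.1%. Neither of the last pairs differed beyond counting error. Spp1 was present in 99.1% of the cells with Igf1, but also in 82.4% of those without. Gpnmb was present in 23.9% of the cells with Igf1 and in 5.79% of those without.

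The genes whose counts were most like those of Igf1 across the 514 injured cells, by Pearson's r on log2(1 + thinned count) among 4215 genes seen in at least 5% of cells, were Spp1 (0.52), Lgals3 (0.44) and Plin2 (0.40). They were followed by Ctsb (0.40), Lgals1 (0.40), Anxa5 (0.37), Cd63 (0.36), a membrane protein of late endosomes, and Apoe (0.34). The lowest were Cst3 (−0.42) and P2ry12 (−0.36). All points share 1 library, and 4 of the 8 highest were again among the 8 highest at 1500 UMIs, as were 4 when only presence was used.

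Part of the contrast followed the clusters, and part was seen within them. Within cluster 11, 72 cells with and 74 without Igf1 had similar median depths of 8232 and 7974.5 UMIs. There Spp1 was at 24961 against 12508 CPM, a log2 ratio of 1.00 (0.92 to 1.07). Lgals3 had 1.07 (0.59 to 1.55), Gpnmb 1.45 (0.68 to 2.27), Plin2 0.72 (0.36 to 1.08) and Apoe 0.49 (0.44 to 0.54). Of the microglial genes that were low over all injured cells, P2ry12 was at −0.15 (−0.65 to 0.35) in cluster 11, Tmem119 at −0.05 (−0.46 to 0.37), Siglech at −0.49 (−1.44 to 0.43) and Cst3 at −0.20 (−0.31 to −0.10). Adgrg1 had 0 UMIs with and 6 without Igf1 there. The damage-associated list had a median of 0.10 there and the homeostatic list −0.22. Among 1609 measured genes, 20 passed 2-fold upward and 33 downward. Cd74, the MHC class II chaperone, was lower at −1.08 (−1.71 to −0.48), and Il1a at −0.82 (−1.26 to −0.39). Both were singled out after their values had been seen, as was the chemokine gene Ccl5, which had 60 UMIs with and 8 without Igf1 in cluster 11. Over all injured cells with Igf1, 5 cells held 79.7% of the Ccl5 UMIs. Its log2 ratio was −0.98 (−2.75 to 0.68) in cluster 3, −1.21 (−1.88 to −0.59) in cells with Y-linked UMIs alone and −0.53 (−1.05 to −0.01) in the deepest of the 4 depth bins. Outside both clusters it was 1.29 (0.93 to 1.64), and with Xist UMIs alone 0.64 (0.18 to 1.08). Over all injured cells it was 0.17 (−0.10 to 0.45), so Ccl5 had no stable direction.

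Within cluster 3, 21 cells with and 16 without Igf1 showed Spp1 at 40895 against 10275 CPM, a log2 ratio of 1.99 (1.84 to 2.15). Plin2 had 2.22 (1.13 to 3.51), Gpnmb 1.96 (1.01 to 3.04) and Lgals3 1.79 (1.02 to 2.64), but Apoe only 0.07 (0.01 to 0.14) and Cst3 0.19 (−0.03 to 0.41). Cd74 stood the other way than in cluster 11, at 1.78 (0.18 to 3.80) on 18 and 4 UMIs. Outside both clusters, in 24 cells with and 307 without, Spp1 had 1.83 (1.69 to 1.98), Lgals3 2.03 (1.04 to 2.92) and Apoe 1.14 (1.07 to 1.20), while Plin2 was at 0.01 (−1.08 to 0.94). P2ry12 was at −1.57 (−2.14 to −1.05) there, and Gpnmb had 0 UMIs in the cells with Igf1. In the deepest of the 4 depth bins, 71 with and 73 without Igf1, Spp1 had 1.26 (1.19 to 1.33), Gpnmb 2.18 (1.41 to 3.03) and P2ry12 −0.89 (−1.47 to −0.32). The damage-associated median was 0.09 in that bin and the homeostatic median −0.37.

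Over 7 sets of injured cells (all cells, cluster 11, cluster 3, neither cluster, the deepest bin and the cells with Y-linked or Xist UMIs alone), which share cells, Spp1 and Lgals3 were higher with Igf1 in all 7, with intervals above 0. Spp1 ranged from 1.00 to 2.70 and Lgals3 from 1.07 to 2.76. P2ry12 was below 0 in all 7, with an interval below 0 in 5. Of the 15 highest genes, 15 kept their sign within cluster 11 and 5 were past 2-fold. Of the 15 lowest, 9 had at least 10 UMIs within cluster 11, of which 8 kept their sign and 1 was past 2-fold. The cells of cluster 11 were among those used to pick these genes, so the kept signs are no separate support.

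**Figure D5:**
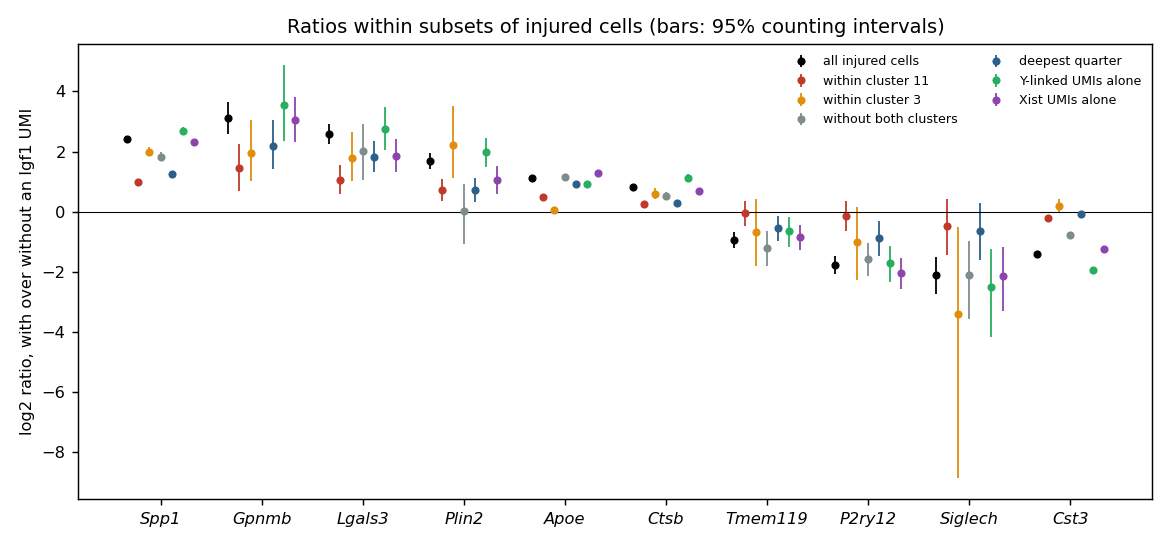
Log2 ratio in cells with over without an Igf1 UMI for 10 genes in 7 sets of injured cells, with 95% counting intervals. Spp1 lies above 0 in all 7 sets (1.00 to 2.70), and P2ry12 is at −0.15 within cluster 11 against −1.77 over all injured cells; Gpnmb has no point outside clusters 11 and 3, where it had 0 UMIs in the cells with Igf1.

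The rest of the insulin-like growth factor system was sparse in these cells. The other ligand genes, Igf2, Ins1 and Ins2, had 0 UMIs in both libraries, as did the pappalysin genes Pappa and Pappa2 and their inhibitors Stc1 and Stc2. The receptor gene Igf1r had 23 uninjured and 19 injured UMIs, 10.99 and 6.14 CPM, a log2 ratio of −0.84 (−1.80 to 0.10) that does not exceed counting error. The insulin receptor gene Insr had 18 and 11 UMIs, with a log2 ratio of −1.28 (−2.50 to −0.11). Igf2r, which clears the related factor IGF2, had 0 and 8. Igfbp4, the binding protein gene with most counts, had 36.8 CPM without injury and 15.8 CPM after it, a log2 ratio of −1.22 (−1.76 to −0.68). Igfbp5 had 0 uninjured and 13 injured UMIs and Igfbp6 2 and 13, and the other binding protein genes had at most 2 UMIs in either library. Within injured cells, Igf1 was seen in 0 of the 8 cells with an Igf1r UMI at 2500 UMIs, which allows a share of up to 36.9%.

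Genes of signalling below the receptor had a median log2 ratio of −0.21 between the libraries. Of 20 measured, 0 were at least 2-fold higher after injury, beside 7.23% over all genes. Between injured cells with and without Igf1, 9 of them were measured. Of these, 1 was past 2-fold, beside 1.89% higher and 8.21% lower over all measured genes. It was Pik3r1, a regulatory subunit of phosphoinositide 3-kinase, at −1.26. In another thinning it was at −0.55. Among 16 receptors and transcription factors chosen as upstream of Igf1, Hif1a, the hypoxia-responsive factor, was higher after injury at 1.46. Stat5a, which acts below the growth hormone receptor, was lower at −1.83, as were Il10ra, an interleukin-10 receptor chain, at −1.25 and the macrophage factor gene Maf at −1.11. In cells with against without Igf1, 0 of 11 measured were past 2-fold, beside 1.89% higher and 8.21% lower over all measured genes. Hif1a was at 0.67 (0.13 to 1.19) and Maf at −0.98 (−1.81 to −0.24). The growth hormone receptor gene Ghr had 0 UMIs in both libraries.

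Other growth factor genes were set beside Igf1. Beside 7.23% higher and 11.5% lower over all genes, 3 of 13 measured were at least 2-fold higher after injury, the midkine gene Mdk at 2.24, the colony-stimulating factor gene Csf1 at 2.21 and the oncostatin gene Osm at 1.05. Another 3 were lower, Tgfb1 at −1.90, Hbegf, a ligand of the epidermal growth factor receptor, at −1.85 and the chemokine gene Cxcl12 at −1.47. In injured cells with against without Igf1, Csf1 was at 0.12, Tgfb1 at 0.63 and Osm at −0.15. Only Gdf15, a stress-induced factor, was past 2-fold higher among the 9 measured, at 1.21 on 17 and 25 UMIs, with Ptn and Hbegf past 2-fold lower. Over all measured genes the shares were 1.89% higher and 8.21% lower.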

How the data were processed

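The authors deposited raw UMI counts in whole numbers, 1 matrix per library; STAR, Cell Ranger 2.0.1, Seurat 2.1.0 and GRCm38.p5 (mm10) appear in the submitters' processing notes, with settings not given in the sources used here. A barcode was kept if it had 200 genes or more and no more than 10% mitochondrial UMIs, which left 695 of 705 uninjured and 577 of 580 injured. Scatter gates removed doublets before sequencing per the labels' protocols, and no doublet caller was run. Cells were thinned without replacement to 1500 or 2500 UMIs. Counts were summed and scaled to CPM. Ratios have exact Clopper-Pearson intervals of 2 Poisson counts, and a zero was set to 3 counts. Clusters came from 2000 variable genes, 20 components, 15 neighbours and Leiden resolution 1.0 (scanpy 1.11.5). TMM came from edgeR 4.0.16 and size factors from DESeq2 1.42.0, as scalings only. The comparison was run on simulated cells with known fold changes, whose sets were fixed in advance and shared the same profile within a set. The simulation covers neither spread between cells nor the picking of cells by a thinned Igf1 count.

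Genes named were the 15 highest and 15 lowest by the interval bound nearest 0 (without mitochondrial, ribosomal, haemoglobin, Rik, numbered Gm and sex-linked genes), up to 4 per list, the 8 most like Igf1, and the IGF genes. Other members of lists were named after their values were seen. Igf1, the 21 gene lists and the 17 marker lists were chosen with earlier results of these data known. Values of some genes covered by these rules are not reported here.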

Additional observations from a re-analysis of the deposited data

How the results depend on the processing

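The log2 ratio of Igf1 between the libraries moved past its counting error when cluster 3 (at least 7.07) or cluster 11 (3.78) was left out. Without both it was at least 5.12. Under the other 8 settings it lay between 4.75 (cells thinned to 1500 UMIs) and 5.24 (cells with Y-linked UMIs alone). TMM and DESeq2 scaling moved the ratio of all genes by 0.14 and 0.15 between the libraries and by 0.12 and 0.13 between cells with and without Igf1. The share of injured cells with Igf1 was 32.9% without thinning, 22.8% at 2500 UMIs, 8.08% without cluster 11 and 5.33% without both clusters. At a clustering resolution of 0.5 the leading cluster held 90.6% of injured Igf1 UMIs. Of the 8 genes most like Igf1, 4 and 4 recurred at 1500 UMIs and with presence only.

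Counts of genes at least 2-fold higher and lower, 79 and 343, became 161 and 562 with at least 2 Igf1 UMIs, 506 and 1146 with no minimum count, 25 and 56 with at least 100 UMIs, and 52 and 178 in cells with Xist UMIs alone. They were 20 and 33 within cluster 11, 17 and 10 within cluster 3, and 16 and 43 in the deepest bin, where fewer genes passed the minimum count. The lower count was 138 at 4000 UMIs, 147 in cells with Y-linked UMIs alone and 568 without cluster 11, and the higher count was 122 with TMM and 136 without both clusters.

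The median of matrix and secreted genes was 1.15 at 4000 UMIs, 1.45 in another thinning, 2.67 in cells with Y-linked UMIs alone, 2.48 without cluster 11, 1.30 without both clusters, 0.78 within cluster 11 and 0.72 in the deepest bin. That of damage-associated genes was 0.10 within cluster 11 and 0.090 in the deepest bin, and that of homeostatic genes −0.22 and −0.37 there and −0.40 without both clusters.

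The interferon-response median was 0.16 at 1500 UMIs, 0.18 with Igf1 status from all UMIs and 0.48 without both clusters. Some named genes changed sign. At 1500 UMIs Gdf15 was at −0.19, Xaf1 at 0.45 and Ifit1 at 0.25. Ifit1 was at 0.037 at 4000 UMIs, 0.49 with Igf1 status from all UMIs and 0.52 within cluster 11. In cells with Y-linked UMIs alone Cxcl1 was at −0.53, Gdf15 at −0.21 and Cxcl14 at −0.21. Xaf1 was at 0.20 without both clusters. Within cluster 11 Tsc22d1 was at 0.36 and Hbegf at 0.040. Within cluster 3 Cst3 was at 0.19, Cxcl1 at −1.20, Lag3 at 1.78, Msr1 at −0.13 and Egr1 at 0.19. In the deepest bin Lag3 was at 0.36, Egr1 at 0.00160 and Hbegf at 0.89. The cause of these changes was not tested. Subsets by cluster and the deepest bin were chosen after seeing the data.

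Limits: 1 library per group, pooled animals of unknown number, and clusters that depend on genes moving with Igf1. Intervals cover neither animals nor the random thinning. An Igf1 UMI marks a cell that was deep or rich enough to show it, so the cells without one include cells that make Igf1.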
